A study of Monascus purpureus with 6 samples.

Results

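C1.358 and C8.500 (evm.TU.C1.358 and evm.TU.C8.500 in full) are 2 of the 7491 genes in the read count table of *Monascus purpureus*, the fungus of red yeast rice. They are named by a scaffold of the YY-1 genome and a gene number, and both are among the transcription factor candidates that the study found by Pfam annotation. They were chosen from measured values, because the normalized counts of each were higher in every winter library than in every YY-1 library, and so the difference between the strains is described here without a test. In the study's lists of gene ontology terms, C1.358 is placed under metal ion binding and C8.500 under zinc ion binding. No gene name, coordinate or sequence is given for either gene in the sources used here.

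The YY-1 strain is the untransformed parent, which is used for food colorant and produces both pigments and citrinin, a kidney toxin. The winter strain is 1 transformant of YY-1, obtained by random insertion of a plasmid with a hygromycin B resistance cassette. It was kept for its low citrinin production, and the study then found that it made more pigment than YY-1. The comparison therefore sets 1 clone against its parent, and the effects of the insertion, of the cassette and of passage through transformation cannot be told apart. Sequenced RNA came from mycelia grown for 8 days, in 3 cultures per strain that are called a, b and c. The YY-1 libraries held 9661178 to 10595943 counts and the winter libraries 15194009 to 16004947, and levels are therefore given as CPM, the count divided by an effective library size (the TMM method, a trimmed mean) and set to a common total. These levels are not divided by gene length, so they are compared between cultures for a gene and not between genes.

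Transcription factors bind DNA near genes and raise or lower their transcription. In filamentous fungi many of them hold zinc in a DNA-binding domain, as does CtnA, the activator of citrinin synthesis. The genes of a fungal secondary metabolite pathway often lie side by side on a chromosome, frequently with the gene of a regulator among them, and for that reason the genes numbered within 5 of each transcription factor gene are described with it.

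The gene C1.358 had 86.8, 99.6 and 206 CPM in YY-1 cultures a, b and c and 569, 352 and 492 CPM in winter cultures a, b and c. The YY-1 value of culture c stood apart from the other two, while among the winter cultures b was the lowest, and the strains did not overlap. The YY-1 mean was 131 ± 65.6 CPM and the winter mean 471 ± 109.8 CPM (SD of n = 3 cultures), 3.60-fold higher, with a log2 fold change of 1.85 ± 0.32 (SE, the standard error). The lowest winter culture was 1.71 times the highest YY-1 culture, and the highest winter culture was 6.55 times the lowest YY-1 culture. Behind these levels were 882 to 1986 reads in the YY-1 libraries and 5563 to 8364 reads in the winter libraries, so counting error was small beside the spread between cultures.

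For C8.500 the levels were 265, 415 and 403 CPM in YY-1 cultures a, b and c and 1025, 622 and 1002 CPM in winter cultures a, b and c. Here the culture that stood apart was a in YY-1 and b in winter, each below the other two of its strain, and again the strains did not overlap. Means were 361 ± 83.6 CPM for YY-1 and 883 ± 227 CPM for winter (SD of n = 3 cultures), 2.45-fold higher, with a log2 fold change of 1.29 ± 0.25 (SE). The separation was narrower than that of C1.358, since the lowest winter culture was 1.50 times the highest YY-1 culture. The reads counted on C8.500 were 2689 to 4849 in YY-1 and 9814 to 15069 in winter. In RNA from whole mycelium, more RNA per cell cannot be told apart from a larger share of cells that make it.

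**Figure D1:**
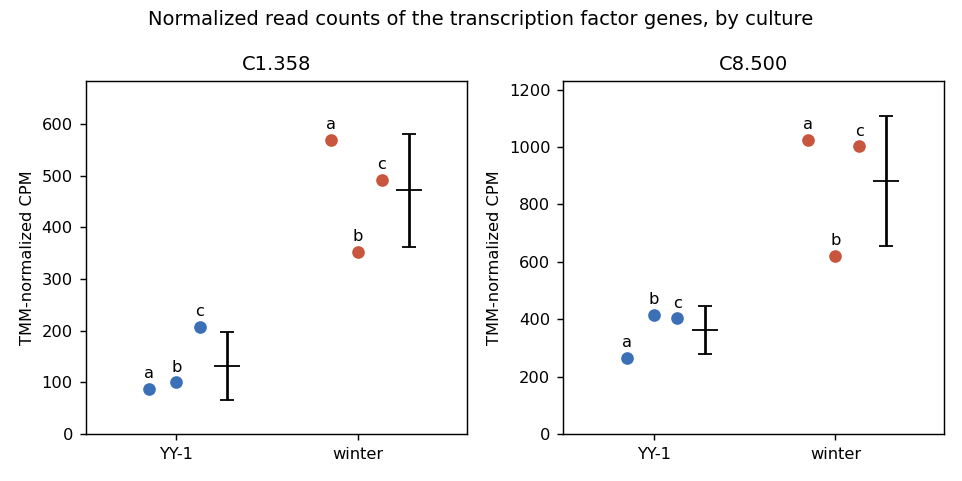
TMM-normalized CPM of C1.358 (left) and C8.500 (right) in each culture, with the YY-1 strain in blue and the winter strain in red, letters for the cultures, and black bars for the mean and SD of 3 cultures. All winter values lie above all YY-1 values, with the smallest gap between YY-1 culture c (206 CPM) and winter culture b (352 CPM) for C1.358, and between YY-1 culture b (415 CPM) and winter culture b (622 CPM) for C8.500.

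The choice of the genes fixed this separation, which 26.8% of the 7355 tested genes showed in the same direction, so nothing is read from it. By the size of the fold change, C1.358 ranked 173 and C8.500 ranked 390 among the tested genes from the largest rise downward, and 2.34% and 5.29% of the genes had a larger rise. At an edgeR adjusted p below 0.05, 22.5% of the tested genes were higher in winter, and 8.92% were higher by more than 2-fold. The share called with more than 2-fold change in either direction was 20.9%. By level, without correction for gene length, C1.358 stood at percentile 82.0 of the 7491 genes in YY-1 and at percentile 94.9 in winter. C8.500 was already at percentile 93.9 in YY-1, against 97.5 in winter. Both genes were therefore well counted in both strains, and neither was switched on from near 0.

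The size of the difference depended on single cultures more for C1.358 than for C8.500. When single libraries were left out, the log2 fold change of C1.358 ranged from 1.65 (without YY-1 replicate a) to 2.34 (without YY-1 replicate c). That of C8.500 ranged from 1.15 (without YY-1 replicate a) to 1.49 (without winter replicate b). The 2 fold changes differed by 0.56 on the log2 scale, and as both genes were chosen on this contrast the difference was not tested.

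The study's text names 3 other transcription factor genes by number, and C1.358 and C8.500 differed less between the strains than C6.126 did. C6.126, a transcription activator in the study's text, had 24.3 to 43.1 CPM in YY-1 cultures and 1650 to 2080 CPM in winter cultures. Its log2 fold change of 5.76 ranked 4 among the tested genes from the largest rise downward. C5.141 and C3.618 were lower in winter, with log2 fold changes of -2.02 and -1.34. The text names these 3 genes for their change in these libraries, so their values are a description as well. In winter the 3 genes varied less between cultures than the pair described here: the coefficient of variation was 13.1% for C6.126, 4.01% for C5.141 and 1.71% for C3.618, against 23.3% for C1.358 and 25.7% for C8.500. In YY-1 this order did not hold, with coefficients of 28.2% for C6.126, 42.8% for C5.141 and 12.8% for C3.618, against 50.1% for C1.358 and 23.2% for C8.500.

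**Figure D2:**
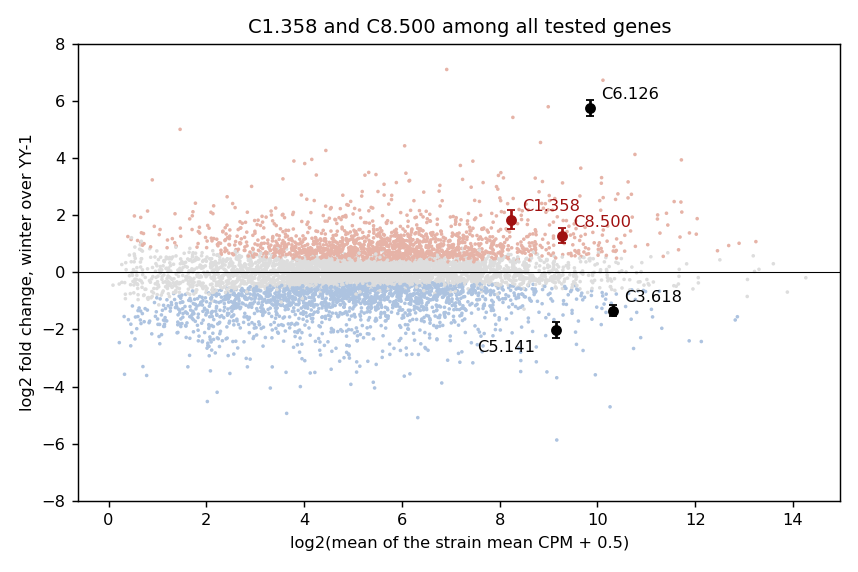
Log2 fold change (winter over YY-1) of the tested genes against the mean level of the strains, log2(CPM + 0.5). Genes called higher in winter are in pink, genes called lower in light blue and the others in grey, 6 genes lie beyond the plotted range of -8 to 8, and the labelled points carry standard errors. C1.358 (1.85) and C8.500 (1.29) lie among the genes of high level, above 0 and well below C6.126 (5.76), while C5.141 (-2.02) and C3.618 (-1.34) lie on the other side of 0.

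In YY-1, the spread of C1.358 between cultures was wide for a gene of its level. Its coefficient of variation of 50.1% was larger than that of 97.5% of the 200 genes nearest to it in mean level, whose median was 13.6%. In winter the coefficient was 23.3%, larger than in 81.5% of the 200 nearest genes, whose median was 11.3%. The spread of C8.500 was 23.2% in YY-1 and 25.7% in winter, larger than in 75.5% and 84.0% of the nearest genes.

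None of the 10 genes numbered within 5 of C1.358 was called higher in winter. In edgeR's quasi-likelihood test with adjustment over all tested genes, 0 of the 10 genes were called higher and 2 were called lower, against 48.0% of all tested genes called in either direction (22.5% higher and 25.5% lower). At an unadjusted p below 0.05 in edgeR the counts were 0 higher and 3 lower, where 26.1% of all tested genes were higher and 28.8% lower. DESeq2's Wald test with adjustment called 0 higher and 2 lower, where it called 24.3% of all genes higher and 24.6% lower. The median log2 fold change of the 10 genes was -0.22, and that of all tested genes was -0.03. No gene within these numbers thus passed in the direction of C1.358, and its 2 adjacent genes, C1.357 and C1.359, had log2 fold changes of -0.26 ± 0.26 and -0.08 ± 0.20 (SE, adjusted p in edgeR 0.439 and 0.777).

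The 2 genes called lower lie on either side of C1.358. C1.355 had 39.0, 37.2 and 47.9 CPM in YY-1 cultures a, b and c and 30.1, 25.6 and 28.6 CPM in winter cultures a, b and c. Its values did not overlap, and its log2 fold change was -0.56 ± 0.16 (SE, adjusted p = 0.0137 in edgeR). C1.360 had 62.4, 58.0 and 62.4 CPM in YY-1 and 44.8, 48.0 and 42.5 CPM in winter, also without overlap, and its log2 fold change was -0.43 ± 0.13 (SE, adjusted p = 0.0205 in edgeR). Both calls were lost without winter replicate c (edgeR adjusted p = 0.0502 and 0.111), and that of C1.360 was also lost without YY-1 replicate a (0.0831) or winter replicate a (0.0642). C1.363 had lower values in every winter library, with a log2 fold change of -0.33 ± 0.15 (SE), but did not pass the threshold (edgeR adjusted p = 0.0871). The strains thus did not overlap for 3 of the 10 genes, all lower in winter, where 57.8% of all tested genes showed no overlap. The remaining 7 genes overlapped, with log2 fold changes between -0.44 for C1.356 and 0.36 for C1.353. C1.353 was called higher only without YY-1 replicate c (log2 fold change 0.82, edgeR adjusted p = 0.0176).

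Around C8.500 some genes rose and others fell. In order of gene number, C8.495 was lower, C8.496, C8.499, C8.501 and C8.502 were higher, and C8.503 was lower. Of the 10 genes numbered within 5 of it, 9 were tested, of which 4 were higher and 2 were lower in winter. Of all tested genes, 22.5% were higher and 25.5% lower. Called in either direction were 66.7% of the 9 genes, against 48.0% of all tested genes. The median log2 fold change of the 9 genes was 0.36, and that of all tested genes was -0.03. The untested gene, C8.497, had 5 to 14 reads in each library and did not pass the filter on low counts. The genes on either side of C8.500 both rose, but by less than 2-fold. C8.499 had a mean of 13.9 ± 2.41 CPM in the parent and 22.0 ± 3.48 CPM in winter (SD of n = 3 cultures), a 1.58-fold increase, and C8.501 one of 49.7 ± 6.58 and 70.3 ± 1.52 CPM (SD of n = 3 cultures), a 1.42-fold increase. In edgeR the adjusted p was 0.0150 for C8.499 and 0.0161 for C8.501. Without winter replicate c neither passed (edgeR adjusted p = 0.0703 and 0.0684), and C8.501 did not pass with library totals alone as scaling (edgeR adjusted p = 0.0518).

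C8.502, which the study's gene ontology lists place among NAD-binding genes with dehydrogenase activity, showed the largest change of the neighbours. It had 27.0, 24.8 and 23.8 CPM in YY-1 cultures a, b and c and 98.2, 63.0 and 91.8 CPM in winter cultures a, b and c. The YY-1 cultures lay close together, and winter culture b was the lowest of its strain, as it was for C8.500. The log2 fold change was 1.74 ± 0.19 (SE, adjusted p = 5.27e-05 in edgeR), a 3.35-fold increase, and it stayed between 1.62 and 1.92 over the 15 alternatives tried. C8.496 also rose, with means of 12.4 ± 1.09 CPM in the parent and 24.8 ± 2.14 CPM in winter (SD of n = 3 cultures) and a log2 fold change of 1.0 ± 0.16 (SE, adjusted p = 0.000575 in edgeR).

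The gene next to C8.502 went the other way. C8.503 had 14.5, 18.1 and 12.0 CPM in YY-1 cultures a, b and c and 8.30, 6.53 and 5.62 CPM in the mutant, with a log2 fold change of -1.13 ± 0.22 (SE, adjusted p = 0.00187 in edgeR). C8.495 had 21.3, 21.8 and 18.3 CPM in YY-1 and 10.7, 12.4 and 13.4 CPM in the mutant, with a log2 fold change of -0.75 ± 0.16 (SE, adjusted p = 0.00373 in edgeR). For neither gene did the strains overlap, and both calls held at the threshold of 0.05 in each of the 15 alternatives. At an edgeR adjusted p below 0.001 neither gene passed. C8.498, C8.504 and C8.505 had overlapping values and did not pass. C8.504, with a log2 fold change of 0.36 (edgeR adjusted p = 0.0941), passed with the culture letter as a replicate block (0.0383) and without winter replicate b (0.0384). C8.498 passed only without YY-1 replicate b, at a log2 fold change of 0.52 (adjusted p = 0.0353 in edgeR).

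**Figure D3:**
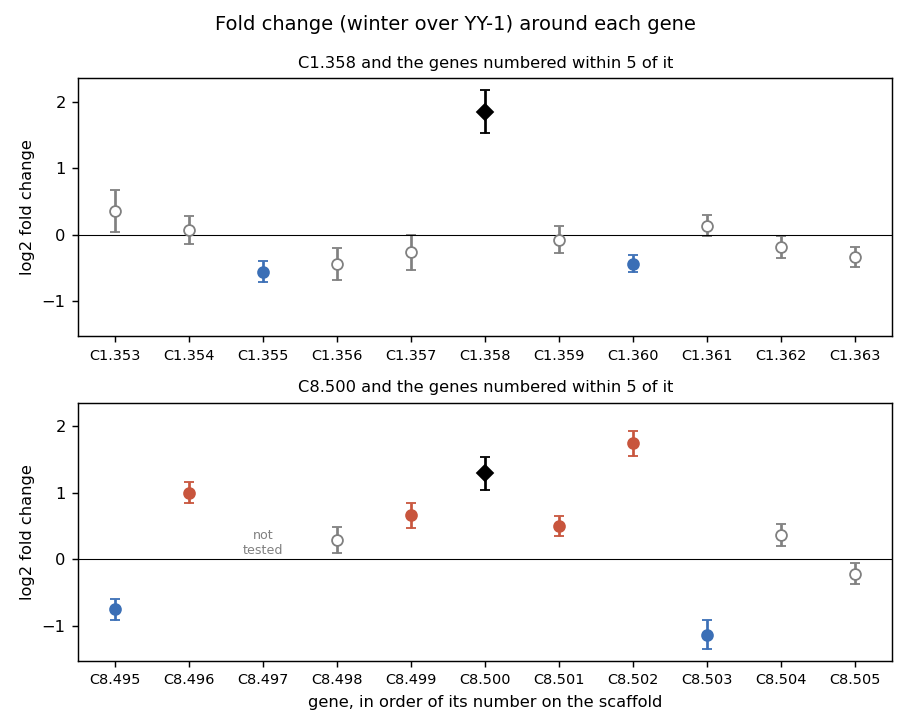
Log2 fold change (winter over YY-1) of C1.358 (top) and C8.500 (bottom) as black diamonds and of the genes numbered within 5 of each in order of gene number, with standard errors from edgeR over 3 cultures per strain. Red points were called higher in winter, blue points lower and open points neither. Around C1.358 (1.85) no gene was called higher and 2 were called lower, while around C8.500 (1.29) 4 were called higher, up to 1.74 for C8.502, and 2 lower, down to -1.13 for C8.503. Of all tested genes, 22.5% were called higher and 25.5% lower.

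The cultures of a strain also differed among themselves in a way that followed gene order beside C1.358. After the values were seen, it was noticed that the 5 genes with lower numbers, C1.353 to C1.357, had the same extreme cultures as C1.358: each was highest in culture c among the YY-1 cultures and lowest in culture b among the winter cultures. This combination occurred in 17.3% of all tested genes and in 0 of the 5 genes with higher numbers, C1.359 to C1.363. On the log2 scale, YY-1 culture c lay above the mean of cultures a and b by 1.15 for C1.358, more than for 98.9% of the tested genes. It lay above that mean by 1.11 for C1.353, by 0.77 for C1.356, by 0.72 for C1.357, by 0.61 for C1.354 and by 0.33 for C1.355. For C1.359, the first gene on the other side, it lay below by 0.58 (a value of -0.58). Winter culture b lay below the mean of winter cultures a and c for the same 5 genes, with values from -0.72 for C1.357 to -0.19 for C1.355, and -0.59 for C1.358. Genes of one library share its RNA and its depth, so these 5 genes are not independent of each other. Reads were counted on unique exons, and overlap between neighbouring genes was not examined. The part of the culture, of the library and of overlapping genes in this order was not tested.

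No such run of genes was seen beside C8.500. In winter culture b, C8.500 lay below the mean of cultures a and c by 0.70 on the log2 scale (a value of -0.70), lower than for all but 2.52% of the tested genes. In YY-1 culture a it lay at -0.63 from the mean of b and c, lower than for all but 2.66%. Winter culture b was the lowest of its strain for 3 of the 5 genes with lower numbers and 3 of the 5 with higher numbers, where 44.0% of all tested genes had this order. The former include the untested C8.497, which had 10 reads in each winter library, so its order came from the scaling alone. C8.502 was the neighbour furthest below in winter culture b, at -0.59, but its YY-1 culture a lay at 0.15. The adjacent gene C8.499 was lowest in the same cultures as C8.500, at -0.40 in winter culture b and -0.26 in YY-1 culture a.

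**Figure D4:**
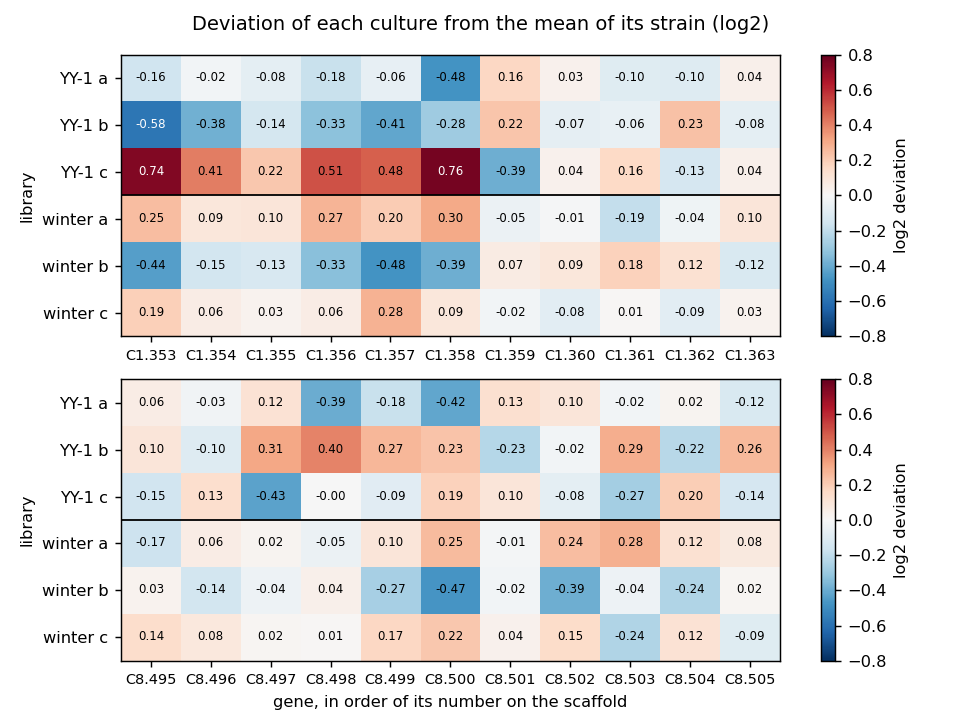
Deviation of each culture from the mean of its strain, log2(CPM + 0.5), for C1.358 with its neighbours (top) and C8.500 with its neighbours (bottom), red above and blue below the mean, with a line between the strains. In the top panel, which begins at C1.353, YY-1 culture c is red and winter culture b is blue from C1.353 to C1.358, and this ends at C1.359. In the bottom panel C8.500 is low in YY-1 culture a and winter culture b.

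The genes whose values over the 6 libraries were most like those of each transcription factor gene were sought by the root mean square difference of log2 levels, after each gene was centred on its own mean, among 6817 genes with a mean count of at least 50. Nearest to C1.358 were C7.40 (0.13 on the log2 scale), C1.62 (0.18), C4.758 (0.22), C1.348 (0.22) and C2.603 (0.23). C1.348, which is 10 numbers from C1.358 and carries FAD-binding and carotenoid terms in the study's lists, had 51.7, 55.2 and 128 CPM in YY-1 cultures a, b and c and 319, 309 and 308 CPM in winter. All 5 genes were highest in culture c among the YY-1 cultures, and their fold changes were 3.36 to 4.01. C2.603 had the widest range, from 348 CPM in YY-1 culture a to 3367 CPM in winter culture a.

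Nearest to C8.500 were C4.476 (0.12 on the log2 scale), C1.640 (0.13), C6.128 (0.14), C6.266 (0.21) and C5.790 (0.21). Their fold changes were 2.37 to 2.55, and winter culture b was the lowest of its strain in all 5. C1.640 is listed with oxidoreductase and tetrapyrrole terms and C5.790 with antioxidant activity. C6.128 is the gene next in number to C6.127, an aldehyde dehydrogenase gene that the study's text places in acetyl-CoA synthesis. In turn C6.127 is next in number to C6.126, the transcription factor gene with a log2 fold change of 5.76. C6.128 had 199, 256 and 239 CPM in YY-1 cultures a, b and c and 651, 479 and 636 CPM in winter. None of the 10 genes was numbered within 5 of the transcription factor gene it resembled. By the same measure C1.358 and C8.500 differed by 0.46, and among the 6817 genes C8.500 ranked 125 from C1.358 while C1.358 ranked 725 from C8.500. These genes were picked for their likeness over 6 libraries, 3 of each strain, so no test is given. By Pearson's correlation in place of the distance, 0 of the 5 genes were shared for either gene.

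**Figure D5:**
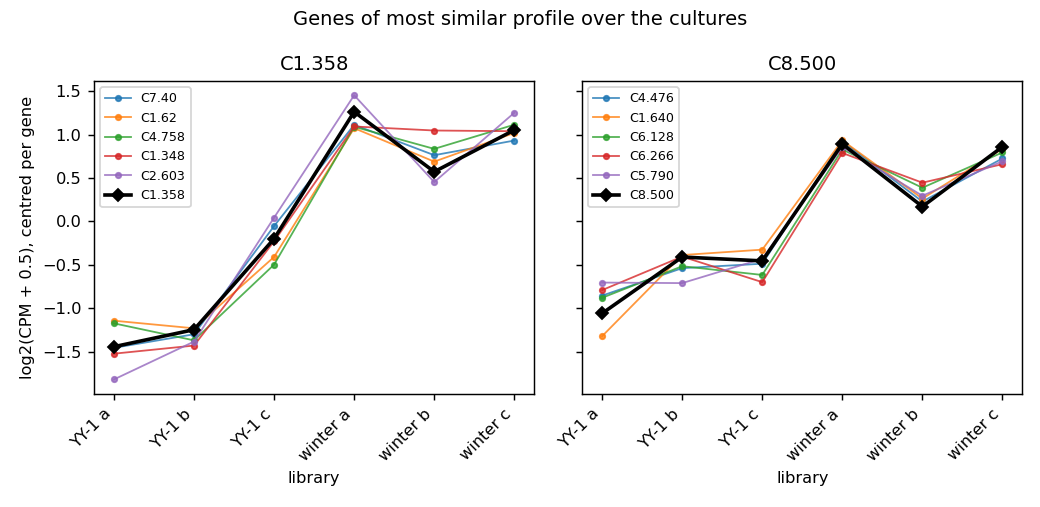
Log2(CPM + 0.5) of C1.358 (left) and C8.500 (right), in black, and of the 5 genes of most similar profile, each centred on its mean over the 6 libraries. Lines join the libraries of a gene only to make it traceable, as the cultures have no order. The genes near C1.358 share its high YY-1 culture c, and those near C8.500 share its low winter culture b.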

How the data were processed

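Per the labels and the study's methods, the authors mapped cleaned reads with TopHat to predicted transcripts of YY-1 and deposited raw read counts from HTSeq for unique exons, without normalization. The submitters' notes give TopHat2 2.0.8b and HTSeq 0.5.4p2, and the study's methods name other versions. Reads of near-identical genes are not counted on unique exons, and the strand was not given in the sources used here. Counts for 7491 genes, 2 of them joined gene models, were scaled by TMM and filtered with filterByExpr (7355 tested, 136 removed). The strains were compared with edgeR 4.0.16 (R 4.3.3) by quasi-likelihood F-tests of a model of strain alone, with Benjamini-Hochberg adjustment and a threshold of 0.05. The test was tried on simulated data first. The standard error is the log2 fold change divided by the square root of F. With 3 libraries against 3, an exact two-sided permutation p cannot go below 0.1, and the median chi-square between replicates, 1.96 to 9.58, showed no library that repeats another.

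Named are the 2 genes, those numbered within 5 of each, the transcription factor genes the study's text gives by number and the 5 genes of most similar profile. The members and lists were chosen with earlier results of these data known. The culture letters, taken from the sample titles, entered only an alternative fit with a replicate block, and not the values and calls given unless that block is named. By a check of the data they may pair the samples, since deviations from the strain means correlated at 0.11 (a), 0.31 (b) and 0.14 (c) over 6818 genes, although YY-1 a and winter c correlated at 0.23. The other alternatives were DESeq2 1.42.0, other scalings and filters, thinning the winter libraries to 10122887 counts, each library left out, and stricter thresholds. A ratio of mean CPM on library totals was added after the data were seen. A reference table for another strain matched 0 of the gene identifiers, so no sequence is shown.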

Additional observations from a re-analysis of the deposited data

How the results depend on the processing

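The log2 fold change of C1.358 stayed between 1.65 and 2.34 and that of C8.500 between 1.15 and 1.49 under all alternatives. With the culture letter as a replicate block they were 1.93 and 1.28, with library totals alone 1.77 and 1.18, and by the ratio of mean CPM, chosen after the data were seen, 1.77 and 1.18. Library totals moved the median log2 fold change of all genes from -0.03 to -0.13. For the neighbours of C1.358, leaving out 1 library gave 0 (without winter replicate c) to 3 calls (without YY-1 replicate c), and 1 without YY-1 replicate a or winter replicate a, while library totals gave 3, all lower, C1.363 being the third. For those of C8.500, leaving out 1 library gave 4 (without winter replicate c) to 7 calls (without YY-1 replicate b or winter replicate b). The share of all tested genes called in these reduced fits is not given, so fewer calls may come from fewer libraries. An adjusted p below 0.001 left 0 neighbours of C1.358 and 2 of C8.500, C8.496 and C8.502, both higher (15.5% of all tested genes passed). A fold change over 2 at the threshold of 0.05 also left 0 and 2, where 20.9% of all tested genes passed. Here the 2 were C8.502, which was higher, and C8.503, which was lower. Among the 19 tested neighbours, 11 kept their call at the threshold of 0.05 in all 15 alternatives, 8 changed it in at least 1 and 0 reversed. The stricter thresholds are not among these 15. The replicate block changed the call of C8.504 and of no other neighbour. The median of the neighbours of C1.358 was 0.11 for gene numbers within 10, in place of -0.22, and that of C8.500 was 0.05, in place of 0.36. Depth did not limit the values of C1.358 and C8.500, but C8.497 was too low to test.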

Other observations

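At 6 to 10 gene numbers from C1.358, edgeR called 3 of the 10 genes higher in winter and 1 lower, where 22.5% of all tested genes were higher and 25.5% lower. The share called, 40.0%, was near the 48.0% of all tested genes. C1.348 rose most, by 2.0 ± 0.31 on the log2 scale (SE, adjusted p = 0.000562 in edgeR), followed by C1.352 with 0.70 (adjusted p = 0.0339 in edgeR) and C1.364 with 0.51 (edgeR adjusted p = 0.0263). C1.352, the next gene beyond C1.353, was also highest in YY-1 culture c, with 143 CPM against 77.4 and 73.2 CPM in a and b. Its winter cultures lay close together at 156, 154 and 165 CPM, with b the lowest. C1.349 was likewise highest in culture c among the YY-1 cultures (34.9 CPM) and lowest in culture b among the winter cultures (32.3 CPM). C1.348, C1.350 and C1.351 did not have both extremes.

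At 6 to 10 numbers from C8.500, 2 of the 10 genes were higher and 2 were lower, again near the shares of 22.5% and 25.5% over all tested genes. C8.506 rose by 1.24 ± 0.18 on the log2 scale (SE, adjusted p = 0.000314 in edgeR), and unlike C8.500 it was highest in winter culture b, with 324 CPM. C8.510 had a log2 fold change of 0.98 (edgeR adjusted p = 0.000267). C8.490 and C8.491 were lower, with log2 fold changes of -1.28 (edgeR adjusted p = 9.89e-05) and -0.76 (edgeR adjusted p = 0.00502).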
